A study of Danio rerio with 4 samples.

Results

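Glycolysis and the citric acid cycle are described here through 55 of the 31716 genes in the expression table. They were chosen by their gene names and not by their values, with earlier results of these data known. The rule took the enzymes from hexokinase to lactate dehydrogenase, the pyruvate dehydrogenase complex and the enzymes of the cycle. It finds 53 genes of 19 enzyme steps and 2 genes of other function, pkmyt1, a kinase that restrains entry into mitosis, and pgam5, a mitochondrial protein phosphatase. The gene dld was left out because it encodes the Notch ligand DeltaD in zebrafish and not a dehydrogenase subunit.

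RNA was measured in zebrafish embryos of the Tg(fli1a:egfp) strain at 24 hours post fertilization. In this strain, fli1a regulatory sequence directs production of green fluorescent protein (GFP), and both groups carry the transgene. Dissociated, fixed embryos were sorted by fluorescence into a GFP-positive group (GFP+), labelled as endothelial cells (the cells that line vessels), and a GFP-negative group (GFP-), labelled as non-endothelial cells, with 2 RNA-seq libraries each. Whether libraries within a group came from separate clutches is not in the labels, so the spread between them may be technical. The p-values therefore cannot be read as covering variation between clutches, and what else enters them was not examined. The table gives 1 value per gene and group in FPKM, fragments mapped to a gene relative to its length and to library size, which allows levels to be compared between genes. Values of single libraries and the depth were not used here, so no level has a standard deviation.

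Both fractions hold several cell types, and their markers differ strongly. In the authors' deposited table, 9 of 13 tested endothelial markers and 12 of 13 erythroid (red cell) markers were called higher in the GFP+ group at a q under 0.05, the false discovery threshold used throughout. Called lower were 13 of 18 skeletal muscle, 9 of 13 neural, 7 of 8 epidermal, 4 of 5 notochord and 2 of 6 pigment markers, and none of the 2 tested yolk syncytial layer markers was called. Over all tested genes, 7.18% were called higher and 7.15% lower. The endothelial list includes fli1a, whose regulatory sequence directs the GFP used for sorting. Summed erythroid markers stood at 90335 FPKM in the GFP+ and 1134 FPKM in the GFP- group, so the GFP+ group is not endothelium alone. In such mixtures, fewer cells of a type and less RNA per cell cannot be told apart.

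Glycolysis splits glucose into pyruvate in the cytosol with a small yield of ATP. Lactate dehydrogenase turns pyruvate into lactate, while the pyruvate dehydrogenase complex feeds it into mitochondria as acetyl-CoA, which the citric acid cycle oxidises. Most steps are encoded by several genes, and in mammals many of these isozymes are typical of a tissue: muscle (PFKM, ALDOA, PGAM2, ENO3), brain (ALDOC, ENO2) or liver (PFKL). Zebrafish often keep duplicate copies of a gene from the genome duplication of teleost fishes, marked by a and b at the end of the name. Such an ending does not always mark a duplicate. The genes idh3a and idh3b encode different subunits, and mdh1b is classed here with a mammalian testis form.

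In GFP+ cells, 4 of these genes were called lower than in GFP- cells (mdh1aa, aldoab, aldocb and gapdh) and 1 was called higher (ogdhb). Of the 55 genes, 35 had a test in the authors' deposited table and 20 had too few alignments. Of the 35, 4 were called lower, 1 was called higher and 30 did not pass, of which 5 had an unadjusted p under 0.05. Calls thus made up 14.3% of the tested members, and over all 7299 tested genes they also made up 14.3%, with 7.18% called higher and 7.15% called lower. The number of calls is therefore no result about these pathways, and the values below describe which genes carried them. The median log2((GFP+ FPKM + 1)/(GFP- FPKM + 1)) was -0.23 over tested members and 0.05 over all tested genes. On this scale, differences of genes with low FPKM are compressed. Of the tested members, 54.3% lay within 1.5-fold between the groups, against 57.3% of all tested genes above 0 in both.

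**Figure D1:**
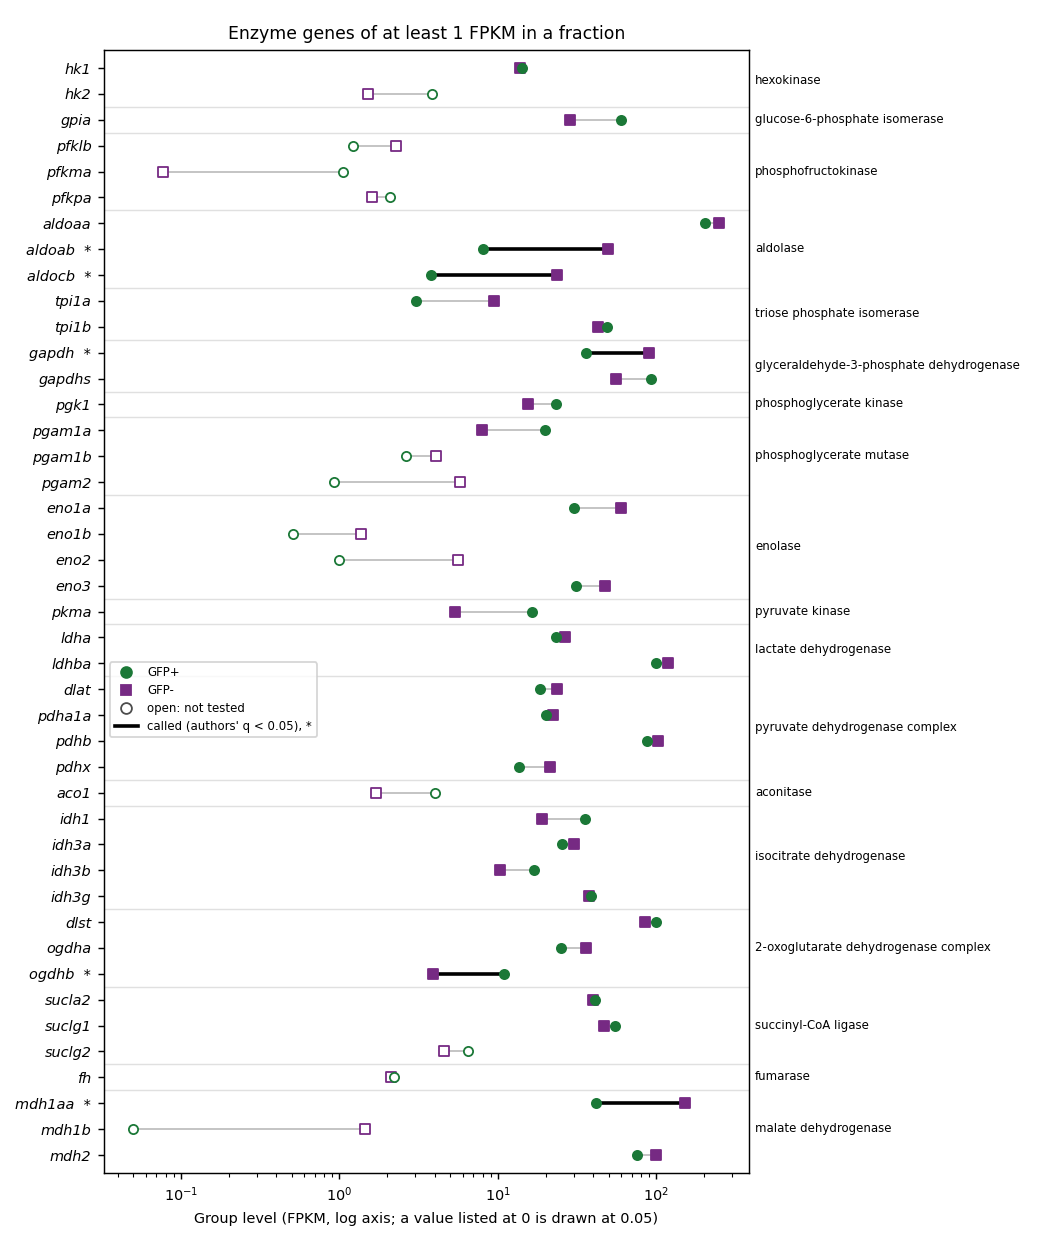
Level of each enzyme gene of at least 1 FPKM in a group (x axis, FPKM on a log scale) in GFP+ (circles) and GFP- cells (squares), ordered by enzyme step; open symbols had no test and black lines mark genes called by the authors' deposited q. The 5 called genes are aldoab, aldocb, gapdh and mdh1aa, lower in GFP+ cells, and ogdhb, higher there. Of the 38 uncalled genes drawn, 18 lay within 1.5-fold between the groups.

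The first steps trap and rearrange glucose. Hexokinase, which phosphorylates glucose, was read mostly from hk1, with 14.2 FPKM in GFP+ and 13.8 FPKM in GFP- cells. Its partner hk2 had 3.82 and 1.51 FPKM and no test. The isomerase gene gpia, which makes fructose 6-phosphate, had 60.1 FPKM in GFP+ and 28.4 FPKM in GFP- cells, a 2.12-fold larger level that did not pass in the authors' deposited table (p = 0.0273, q = 0.135). Its duplicate gpib was under 1 FPKM in both groups. Phosphofructokinase, the main control point of glycolysis, stood low in both groups. Its 5 genes together reached 5.33 and 4.59 FPKM, none had a test, and the highest single value was 2.26 FPKM, for pfklb in GFP- cells. The Cuffdiff locus of pfklb also holds other genes, among them RPL37A at 6166 and 5590 FPKM, so reads may be assigned with error. The summed ratio of this step, GFP+ over GFP-, was 1.16, and 1.73 among genes alone in their locus. The muscle-type gene pfkma had 1.05 FPKM in GFP+ and 0.0775 FPKM in GFP- cells.

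Aldolase, which splits the sugar into triose phosphates, held 2 of the 4 genes called lower in GFP+ cells. The gene aldoab (ENSDARG00000034470; chromosome 12, 4716921 to 4750571 in the Zv9 build), a copy of the muscle-type enzyme, had 8.01 FPKM in GFP+ and 49.7 FPKM in GFP- cells. That level is 6.21-fold lower (q = 0.000958 in the authors' deposited table). Its Cuffdiff locus also holds zgc:123217, which was under 1 FPKM in both groups. The brain-type gene aldocb (ENSDARG00000019702; chromosome 21, 38444344 to 38474972) had 3.77 FPKM against 23.5 FPKM, 6.23-fold lower (q = 0.00433 in the authors' deposited table). The more abundant copy of the muscle-type enzyme, aldoaa, differed less. It had 203 FPKM in GFP+ and 250.1 FPKM in GFP- cells, the highest level of any member in either group, and did not pass (q = 0.738 in the authors' deposited table). The gene aldoca was listed at 0 in both groups. As a share of summed aldolase FPKM, aldoaa made up 77.9% in GFP+ and 64.0% in GFP- cells. The shares of aldoab were 3.07% and 12.7%, and those of aldocb 1.45% and 6.01%.

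These aldolase genes stand beside a strong difference in the tissues their mammalian counterparts are named for. Summed skeletal muscle markers were at 819.9 FPKM in GFP+ and 3871 FPKM in GFP- cells, all 20 muscle genes found had the lower level in GFP+ cells, and none was listed at 0. Summed neural markers were at 68.9 and 1652 FPKM, with all 14 lower and none at 0. The part of muscle and neural cells in the levels of aldoab and aldocb was not tested. The muscle class here also takes in hk2, pkma, pkmb and ldha. Of its 9 other members, 5 had the larger level in GFP+ cells (hk2, pfkma, pfkmb, pkma and pkmb) and 4 in GFP- cells. Of the 5, only pkma had a test, and pfkmb and pkmb were under 1 FPKM in both groups. Of the 4, pgam2 had no test. Of all 9, 4 were tested and 0 were called. Over all tested genes 14.3% were called, so this count is no result about the class.

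Triose phosphate isomerase interconverts the triose phosphates and is encoded by tpi1a and tpi1b. The abundant tpi1b had 49.0 FPKM in GFP+ and 42.8 FPKM in GFP- cells, and tpi1a had 3.02 against 9.42 FPKM. Neither passed in the authors' deposited table (q = 0.881 for tpi1b and q = 0.198 for tpi1a). The gene tpi1a lies beside eno2, the neuron-type enolase, on chromosome 19, with 1599 bases between their loci in Zv9. The level of eno2 was 0.996 FPKM in GFP+ and 5.62 FPKM in GFP- cells, so both neighbours had the lower value in GFP+ cells, without a call for either (eno2 had no test).

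Glyceraldehyde-3-phosphate dehydrogenase, which makes NADH in glycolysis, was divided between its 2 genes. The gene gapdh (ENSDARG00000043457; chromosome 16, 19254363 to 19261820), widely used as a reference gene, had 35.8 FPKM in GFP+ and 89.3 FPKM in GFP- cells. This 2.50-fold lower level passed (q = 0.0156 in the authors' deposited table). Its relative gapdhs, whose mammalian counterpart is the sperm form, had 92.7 FPKM against 55.5 FPKM and did not pass (p = 0.0676, q = 0.258 in the authors' deposited table). The sum of both was 128 and 145 FPKM, close in the groups, while the share of gapdh was 27.8% in GFP+ and 61.7% in GFP- cells. Whether the genes differ in their ratio between the groups was not tested, since that needs values of single libraries.

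The later steps of glycolysis recover ATP. Phosphoglycerate kinase, pgk1, had 23.4 FPKM in GFP+ and 15.5 FPKM in GFP- cells (q = 0.459 in the authors' deposited table). Among the phosphoglycerate mutases, pgam1a had 19.9 against 7.90 FPKM, a 2.51-fold larger level that did not pass (q = 0.471 in the authors' deposited table). Its Cuffdiff locus also holds METTL18, with 5.63 FPKM in GFP+ and 5.58 FPKM in GFP- cells, so reads may be assigned with error. The muscle-type pgam2 had 0.917 against 5.75 FPKM and pgam1b 2.62 against 4.04 FPKM, both with no test. The share of pgam1a in this step was 84.9% in GFP+ and 44.6% in GFP- cells. The Cuffdiff locus of pgam2 also holds rpl17, with 4669 FPKM in GFP+ and 4203 FPKM in GFP- cells. The level of pgam2, and with it these shares, may therefore carry the same kind of error.

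Enolase, which forms phosphoenolpyruvate, was read from 2 abundant genes. The widely used form eno1a had 30.0 FPKM in GFP+ and 59.5 FPKM in GFP- cells, 1.98-fold lower (p = 0.0346, q = 0.161 in the authors' deposited table). The muscle-type eno3 had 31.3 against 47.2 FPKM (q = 0.400 in the authors' deposited table). All 4 enolase genes, eno1b and eno2 included, had the lower value in GFP+ cells, and none passed. Pyruvate kinase, the last step, had its larger value in GFP+ cells. Its gene pkma had 16.4 FPKM against 5.34 FPKM, a 3.08-fold larger level that narrowly missed the threshold (p = 0.0094, q = 0.0615 in the authors' deposited table). The duplicate pkmb was under 1 FPKM in both groups.

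**Figure D2:**
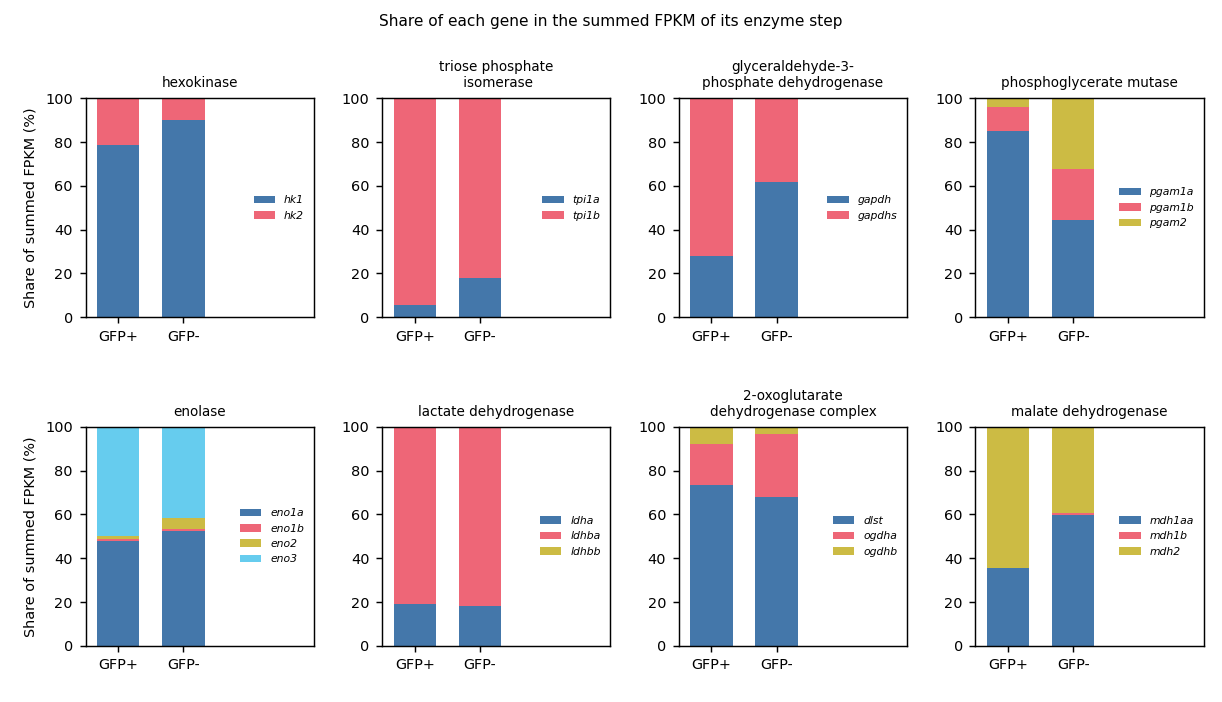
Share of each gene in the summed FPKM of its enzyme step (y axis, %) in GFP+ and GFP- cells, for 8 steps with more than 1 gene. The largest share passes from gapdh (61.7%) in GFP- cells to gapdhs (72.2%) in GFP+ cells and from mdh1aa (59.9%) to mdh2 (64.5%). It also passes, narrowly, from eno1a (52.3%) to eno3 (49.8%). Lactate dehydrogenase is divided alike in both.

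Lactate dehydrogenase differed little. The gene ldhba had 99.0 FPKM in GFP+ and 118 FPKM in GFP- cells, and ldha had 23.1 and 26.7 FPKM. Neither passed in the authors' deposited table (q = 0.788 for ldhba and q = 0.890 for ldha). The heart-type ldhba made up 81.0% of the summed level in GFP+ and 81.6% in GFP- cells, and ldhbb was under 1 FPKM in both.

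The pyruvate dehydrogenase complex links glycolysis to the cycle. Its 4 tested subunit genes were pdha1a and pdhb of the first enzyme, dlat of the second and the binding protein pdhx. Each had a lower value in GFP+ cells and none passed. The most abundant, pdhb, had 87.6 FPKM in GFP+ and 102.7 FPKM in GFP- cells (q = 0.813 in the authors' deposited table). The largest difference was in pdhx, with 13.7 and 21.4 FPKM (q = 0.466 in the authors' deposited table). The third enzyme of the complex is encoded by dldh, which the name rule does not reach and which had 21.3 and 23.4 FPKM.

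Mitochondrial enzymes of the cycle varied less between the groups than glycolytic genes in these values. Of 10 tested mitochondrial cycle genes, 8 were within 1.5-fold, against 4 of 15 tested glycolytic genes, a description with no test. Over all tested genes above 0 in both groups, 57.3% were within 1.5-fold. The median size of the log2 ratio with 1 FPKM added was 0.24 over 14 tested mitochondrial members, those of the pyruvate dehydrogenase complex included, and 0.87 over 19 tested cytosolic members. Citrate synthase, the entry step, cannot be described: its gene cs was listed at 0 in both groups, which can be a failed estimate. Its Cuffdiff locus also holds SNRPG, a splicing protein gene with 444 and 327 FPKM. Cytosolic aconitase, aco1, also known as an iron-sensing RNA-binding protein, had 3.98 and 1.69 FPKM with no test.

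Isocitrate dehydrogenase comprises a mitochondrial NAD-dependent enzyme and NADP-dependent forms. The NAD-dependent subunit genes idh3a, idh3b and idh3g had 25.5, 17.0 and 38.9 FPKM in GFP+ and 30.4, 10.3 and 37.7 FPKM in GFP- cells, and none passed. The cytosolic NADP-dependent idh1 had 35.6 FPKM against 19.1 FPKM, a 1.87-fold larger level (p = 0.0328, q = 0.155 in the authors' deposited table). The mitochondrial form is listed in capitals as IDH2, outside the rule, with 308 and 394.8 FPKM (q = 0.674 in the authors' deposited table). With it, the summed level of this step was 425 FPKM in GFP+ and 492 FPKM in GFP- cells.

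The 2-oxoglutarate dehydrogenase complex held the single gene called higher in GFP+ cells. The gene ogdhb (ENSDARG00000073805; chromosome 10, 46127810 to 46209521), one of the genes for the first enzyme of this complex, had 10.9 FPKM in GFP+ and 3.87 FPKM in GFP- cells. That level is 2.83-fold higher (q = 0.0220 in the authors' deposited table). Its duplicate ogdha had 25.1 against 35.8 FPKM and did not pass (q = 0.940 in the authors' deposited table), and the second enzyme, dlst, had 100.1 against 84.5 FPKM (q = 0.799 in the authors' deposited table). The loci of ogdha and ogdhb each hold other genes, among them ppiaa at 1379 and 1383 FPKM beside ogdha and pargl at 0.922 and 1.32 FPKM beside ogdhb, so reads near them may be assigned with error.

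Succinyl-CoA ligase, which makes nucleoside triphosphate in the cycle, had near-equal levels. Its gene sucla2 had 40.9 and 40.0 FPKM, and suclg1 had 54.9 and 46.8 FPKM, in GFP+ and GFP- cells (q = 0.982 for sucla2 and q = 0.810 for suclg1 in the authors' deposited table). The gene suclg2 had 6.51 and 4.56 FPKM and fumarase, fh, had 2.21 and 2.11 FPKM, both with no test.

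Malate dehydrogenase was divided by compartment. The cytosolic gene mdh1aa (ENSDARG00000017772; chromosome 1, 51478229 to 51500208), whose product carries reducing equivalents in the malate-aspartate shuttle, had 41.6 FPKM in GFP+ and 151.6 FPKM in GFP- cells. That level is 3.65-fold lower (q = 0.000958 in the authors' deposited table). The mitochondrial cycle enzyme mdh2 had 75.4 FPKM against 99.9 FPKM and did not pass (q = 0.606 in the authors' deposited table). The share of mdh1aa in the step was 35.5% in GFP+ and 59.9% in GFP- cells. The gene mdh1b had 1.44 FPKM in GFP- cells and was listed at 0 in GFP+ cells, with no test.

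**Figure D3:**
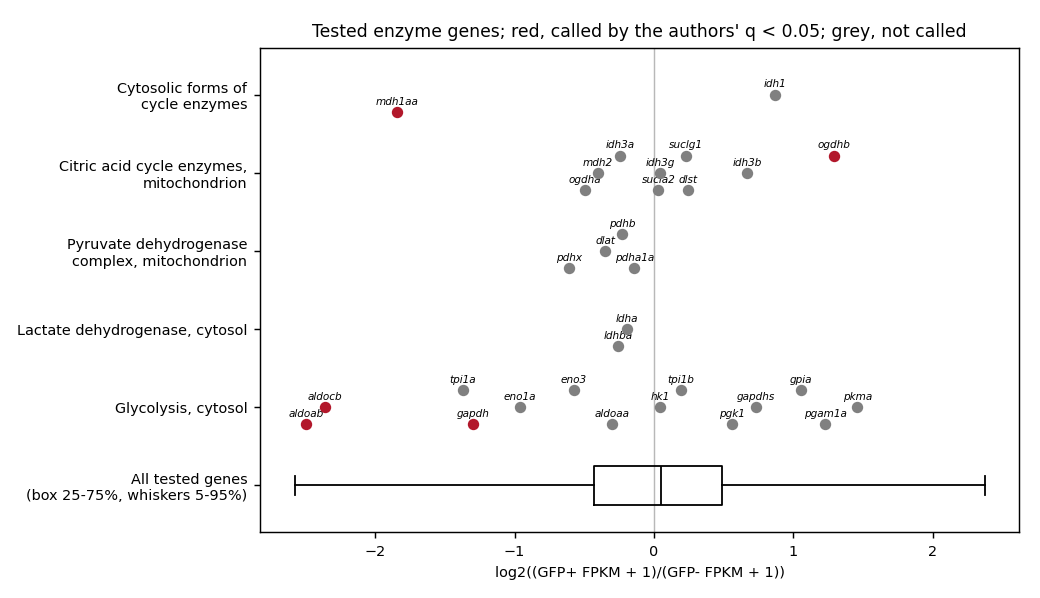
Log2((GFP+ FPKM + 1)/(GFP- FPKM + 1)) of the tested enzyme genes by pathway and compartment (points; red, called; grey, not called), above the distribution over all tested genes (box, middle 50%; whiskers, 5% to 95%). Glycolytic genes run from -2.49 (aldoab) to 1.46 (pkma), and mitochondrial cycle genes from -0.49 (ogdha) to 1.29 (ogdhb).

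Summed over all genes of a step, 12 of 18 steps with a value were within 1.5-fold between the groups. The 28 glycolytic genes summed to 651 FPKM in GFP+ and 790 FPKM in GFP- cells, a ratio of 0.825. The 17 cycle genes include 4 for cytosolic forms (aco1, idh1, mdh1aa and mdh1b). All 17 summed to 507 and 602 FPKM, a ratio of 0.842, and 1.03 without mdh1aa. These sums leave out IDH2, whose name falls outside the rule. With it they were 815 and 997 FPKM, a ratio of 0.817, and 0.915 without mdh1aa. The other 6 steps were outside 1.5-fold, phosphoglycerate kinase (1.504) and aldolase (0.666) only just. Of these 6, sums were lower in GFP+ cells for aldolase (261 and 391 FPKM), enolase (62.8 and 114 FPKM) and malate dehydrogenase (117 and 253 FPKM). They were larger there for glucose-6-phosphate isomerase (60.5 and 29.4 FPKM), phosphoglycerate kinase and pyruvate kinase (16.9 and 5.65 FPKM). No test was made of these sums. The FPKM of all genes sum to 798915 in GFP+ and 664220 in GFP- cells, and globins make up 11.1% and 0.167%. Rescaling to equal totals lowers every GFP+ level by 0.27 on the log2 scale, and 6 of the 10 steps with a ratio above 1 then lie below it. Isocitrate dehydrogenase is among these 6 by its members alone, at 1.201 as deposited, and with IDH2 its ratio was 0.864 before any rescaling.

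**Figure D4:**
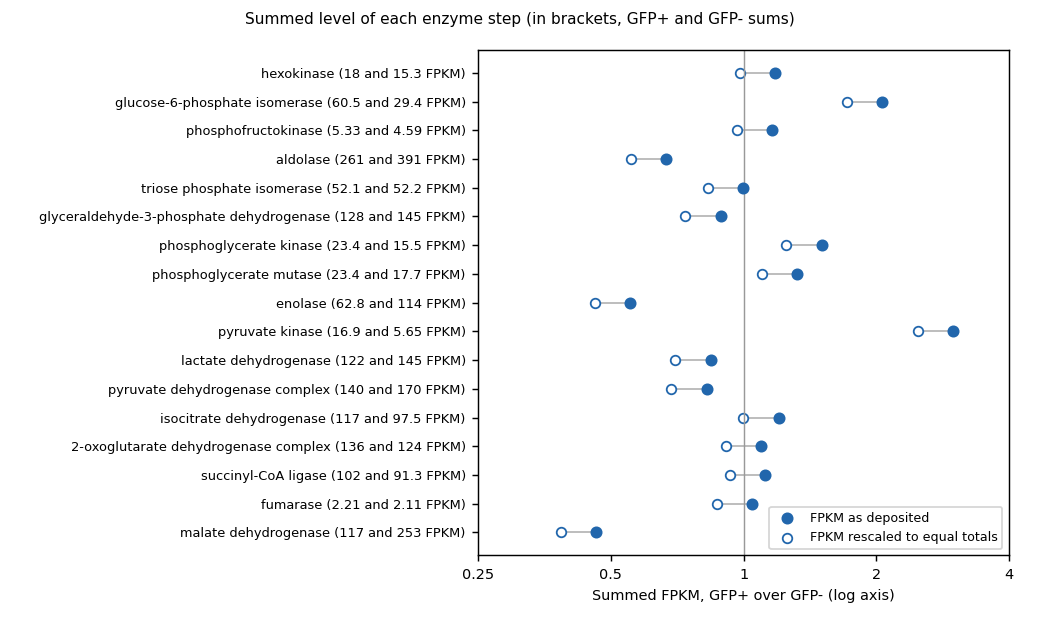
Summed FPKM of each enzyme step in GFP+ over GFP- cells (x axis, log scale), as deposited (filled) and rescaled to equal totals (open), with IDH2 not included. Glucose-6-phosphate isomerase, phosphoglycerate kinase and pyruvate kinase lie above 1 and aldolase, enolase and malate dehydrogenase below 1 on both scales, while the other steps drawn were within 1.5-fold as deposited.

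In 7 of the 14 steps with more than 1 gene of at least 1 FPKM, some genes had the larger value in GFP+ and others in GFP- cells. Among the 20 genes without a test, 8 were under 1 FPKM in both groups and the highest value was 6.51 FPKM. The lowest-expressed tested member, tpi1a, reached 9.42 FPKM in its higher group.

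Genes around these pathways came from 10 lists of transporters, regulators and side branches, of which 106 of 136 symbols were found. Among them, 38 genes had a test in the authors' deposited table, of which 3 (7.89%) rose, 0 fell and 35 did not pass. Over all tested genes 14.3% were called and 7.18% were called higher, so this count is no result about the lists. The glycogen phosphorylase gene pygb, which releases glucose units from glycogen, had 21.2 FPKM in GFP+ and 3.08 FPKM in GFP- cells, 6.89-fold higher (q = 0.000958 in the authors' deposited table). The muscle-type phosphorylase pygmb had 2.60 against 8.37 FPKM and did not pass (q = 0.153 in the authors' deposited table). The gene pdk4, a kinase that inactivates pyruvate dehydrogenase, had 10.9 against 2.92 FPKM, 3.74-fold higher (q = 0.0129 in the authors' deposited table). The mitochondrial acetyl-CoA synthetase acss1 had 21.8 against 8.999 FPKM and passed narrowly (q = 0.0499 in the authors' deposited table).

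Other lists around the pathway held no call. Of 7 tested pentose phosphate genes, none passed. All 7 had the larger level in GFP+ cells as deposited and 6 at equal totals, where prps1a (79.7 and 78.8 FPKM) turned, and 53.1% of all tested genes had the larger level there as deposited. Of the 3 genes of this list without a test, prps1b and h6pd had the lower level in GFP+ cells. The dehydrogenase gene pgd of that pathway had 30.3 against 14.0 FPKM (p = 0.0121, q = 0.0745 in the authors' deposited table). Of 4 tested succinate dehydrogenase genes none passed, and the flavoprotein gene sdha had 108 and 128 FPKM. The list around lactate and pyruvate transport gave no call among its 4 tested genes. No call came from 4 tested genes of the hypoxia-inducible factor pathway, whose factor gene hif1ab had 61.5 and 81.0 FPKM. In the same list, epas1a had 0.856 FPKM in GFP+ and 4.30 FPKM in GFP- cells. The gene hif1aa was listed at 0 in GFP+ and had 0.951 FPKM in GFP- cells, and neither of these had a test. Glucose transporter genes stood low. Only slc2a10 of 9 was tested, the widely used transporter genes slc2a1a and slc2a1b had 0.438 and 2.22 FPKM in GFP+ and 1.63 and 3.76 FPKM in GFP- cells, and slc2a3b had 6.83 against 1.15 FPKM.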

How the data were processed

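RNA-seq reads were processed by the authors, per the submitters' processing notes with TopHat2 (2.0.9) and with Cuffdiff (2.1.1) on the Zv9 build; the sources used here give no settings. Per the file headers, the deposited table holds FPKM for each group, a log2 ratio (GFP-negative over GFP-positive, turned here), a test statistic (a score), and the p-value with its q-value. Each FPKM was treated as the authors' value for a group's libraries together, which the headers do not state. Depth is unknown. The deposited q matched a Benjamini-Hochberg adjustment over the 7299 tested genes within 5.3e-07. Another 24304 genes had too few alignments and 113 had the status LOWDATA.

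Calls were made at a deposited q under 0.05. Every gene found by the name rule could be named, and from the surrounding lists called genes and a fixed set. The genes hif1aa, hif1ab, epas1a, slc2a1a, slc2a1b, sdha, pdk4 and dldh belong to that set. Values of pdk1 and sdhb, also in the set, are not given. By contrast, pygmb, pgd, prps1a, prps1b, h6pd, slc2a10 and slc2a3b were chosen after their values were seen. Members and lists were chosen with earlier results of these data known. Sums, shares and ratios with 1 FPKM added were computed in Python 3.11.15 with pandas 2.3.3, and the code was tested on simulated data. Coordinates are Cuffdiff loci in Zv9; the file does not say from which number starts are counted. Of the tested genes, 1757 share a locus with another gene, among them 9 members, with tpi1b, pgam1a and ldha included. In the text and figures, 2 member genes are not reported here; counts and sums include them.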

Additional observations from a re-analysis of the deposited data

How the results depend on the processing

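The 5 calls among members became 3 at a q under 0.01, with 0 higher, since gapdh and ogdhb no longer passed, and 3 with 0 higher among genes alone in their Cuffdiff locus, which leaves out aldoab and ogdhb by construction. The 3 calls in surrounding genes became 1 at a q under 0.01 (1 higher), with pdk4 and acss1 no longer past it. The other alternatives gave counts within 1.5 times (a minimum log2 ratio of 1, at least 1 FPKM in both groups, adjustment over genes of at least 1 FPKM, the name rule without regard to case, enzyme genes alone and, chosen after seeing the data, names of the reference). Some of these could not remove a call. Every called gene exceeds the minimum log2 ratio, and the 1 FPKM minimum left all 35 tested members in. The enzyme set leaves out only pkmyt1 and pgam5, which were not called. The median log2 ratio of tested members, -0.23, was -0.20 with at least 1 FPKM in both groups, -0.24 centred on the median of genes of at least 1 FPKM, -0.32 at equal totals without globins and -0.25 in genes alone in their locus. The summed ratio, 0.825 for glycolysis and 0.842 for the cycle, was 0.686 and 0.700 at equal totals, 0.770 and 0.786 at equal totals without globins, 0.831 and 1.03 without the most abundant member and 0.856 and 0.822 in genes alone in their locus. With IDH2, chosen after seeing the data, the cycle ratio was 0.817, and 0.915 without mdh1aa. Uncalled genes near equality turned sign at equal totals: dlst (-0.021), hk1 (-0.21), idh3g (-0.22), sucla2 (-0.23), suclg1 (-0.035) and tpi1b (-0.067), and without globins hk1 (-0.051), idh3g (-0.053) and sucla2 (-0.065). Every scaling tried lowers the GFP+ level, so of the called genes only those called higher could turn. None of these did, with ogdhb at 1.05 and acss1 at 0.93 at equal totals. The same pseudocount added to both groups cannot turn a sign.

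No paired analysis was possible because the table holds 1 value per group, which also prevented leaving out single libraries. Depth is unknown, so for the 20 members without a test a difference could not be assessed.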
